A study of Mus musculus with 9 samples.

Results

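Fatty acid oxidation is the stepwise removal of acetyl units from fatty acids, and ketogenesis is the conversion of the acetyl-CoA it yields into ketone bodies. The genes described here are a list of 41 mouse genes of both processes, chosen by name with earlier results of these data known. They cover fatty acid uptake and activation, the carnitine shuttle, mitochondrial and peroxisomal oxidation, electron transfer, ketone body enzymes, regulators, and lipid droplet proteins. Each gene was read from its probe set with a single gene symbol, and from the one with the highest mean over 9 arrays where there were several. By this rule 38 of the 41 were measured, among 19938 genes in all. The other 3, Acsl1, Acsl3 and Cpt1b, were not analysed here.

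The samples were stromal cells sorted from the livers of C57BL/6 mice, 3 arrays at each of 3 stages: E15.5, an embryonic stage named by days after conception, and the postnatal days 5 (P5) and 10 (P10). All animals, at every stage, carried the genotype Cxcl12DsRed/+, in which DsRed, a red fluorescent protein, reports Cxcl12 from 1 allele. The sort took DsRed-positive cells lacking CD45 and Ter119, surface proteins of blood cells, so it marks cells by use of the Cxcl12 gene and not by a defined cell type. The labels call the 3 arrays of a stage independent but do not say whether each came from 1 animal or a pool, so a p-value here reflects only how far these arrays scatter, which may be partly technical.

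As background, long-chain fatty acids enter a cell, are bound by carrier proteins and are activated to acyl-CoA, and the carnitine shuttle then carries them across the mitochondrial membranes. Inside, acyl-CoA dehydrogenases, hydratases, hydroxyacyl-CoA dehydrogenases and thiolases shorten them in a repeating spiral, while peroxisomes shorten very long and branched chains. In the liver the acetyl-CoA can be turned into ketone bodies for export, a use known to become large after birth, when milk fat replaces the glucose supplied through the placenta. Many of the genes are known targets of the nuclear receptor PPAR-alpha, encoded by Ppara, which binds with its RXR partner to a direct repeat of a short half-site.

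Promoter sequences of the members are shown first, and whether they bear on the differences between stages was not tested. RefSeq promoter windows of GRCm38.p6, from 250 bases before to 50 bases after the transcript start, were given for 31 of the members, with 34 windows. The repeat searched was AGGTCANAGGTCA on both strands, with up to 2 mismatches over its 12 defined positions. It was found in 6 of the 34 windows (17.6%), against 3.86% of all 32851 windows, which were not matched to them for base composition. With at most 1 mismatch it was found in 1 member window (2.94%), that of Fabp1, against 0.554% of all, and no member window held it without mismatch (0.0396% of all). A match is a match of letters and not a measured binding site. Of the 6 matches, 4 lay before the start, and their windows follow 5′ to 3′ along the gene's strand, with the match in capitals. The whole Fabp1 window is shown because it holds the closest match, at 67 to 55 bases before the start with 1 mismatch, and the other 3 matches have 2.
Fabp1 (chr6:71199629-71199928, + strand): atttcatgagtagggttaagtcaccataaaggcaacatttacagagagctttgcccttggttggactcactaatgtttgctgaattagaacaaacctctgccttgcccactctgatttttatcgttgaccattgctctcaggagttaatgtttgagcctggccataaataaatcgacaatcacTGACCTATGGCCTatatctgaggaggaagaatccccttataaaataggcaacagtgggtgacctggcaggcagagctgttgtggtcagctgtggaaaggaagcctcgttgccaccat
Cd36 (chr5:17835932-17835974, - strand, 63 to 51 bases before the start): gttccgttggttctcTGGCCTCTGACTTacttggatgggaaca
Etfa (chr9:55512293-55512335, - strand, 77 to 65 bases before the start): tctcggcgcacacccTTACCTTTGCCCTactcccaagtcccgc
Plin2 (chr4:86670257-86670299, - strand, 225 to 213 bases before the start): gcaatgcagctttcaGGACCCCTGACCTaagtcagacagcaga

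The remaining matches, each with 2 mismatches, lay after the start, at bases 10 to 22 in Acox2 and 7 to 19 in Slc25a20. Ehhadh, which showed the largest difference of all members, had no match of 2 or fewer mismatches, and its best alignment had 4. Its window is given for comparison, with a reverse CCAAT box in capitals.
Ehhadh (chr16:21787785-21788084, - strand): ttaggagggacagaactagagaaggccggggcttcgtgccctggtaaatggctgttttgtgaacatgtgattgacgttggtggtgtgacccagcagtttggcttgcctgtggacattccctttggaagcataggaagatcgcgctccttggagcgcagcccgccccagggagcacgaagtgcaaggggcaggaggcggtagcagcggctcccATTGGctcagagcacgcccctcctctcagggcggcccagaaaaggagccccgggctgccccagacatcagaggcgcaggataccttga

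The Ehhadh window held 14 CpG dinucleotides and 60.7% G and C, whereas that of Fabp1 held 3 CpG and 45.0% G and C with a TATAAA box that begins 30 bases before the start. Over the member windows the median was 15 CpG (range 2 to 34), against 7 over all windows, and the median G and C content was 60.67%, against 52.67%. GGGCGG, the core of the Sp1 box, occurred in 23 of 34 member windows (67.6%), against 35.7% of all. CCAAT occurred in 14 (41.2%), against 37.4%, and TATAAA in 1 (2.94%), that of Fabp1, against 13.6%. The half-site AGGTCA, which is also part of the repeat, occurred in 7 (20.6%), against 16.3%. These 3 boxes and the half-site were also searched on both strands.

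All values are log2 signals, so that 1 unit is a 2-fold difference in signal, and signals of different probe sets are not comparable in level. Pearson r across probe sets was 0.983 to 0.993 within a stage and 0.901 to 0.985 between stages. Markers of other liver cells also differed between stages. Of 17 measured hepatocyte markers, 13 rose and 1 fell at P5 relative to E15.5, and 10 rose and 3 fell at P10 relative to E15.5. Their log2 summed signal, which the brightest genes weigh on most, ranged over 15.81 to 15.91 at E15.5, 16.42 to 16.51 at P5 and 16.28 to 16.49 at P10. Their mean log2 signal, in which each gene counts alike, differed more. It ranged over 9.675 to 9.767 at E15.5, 11.893 to 12.054 at P5 and 11.797 to 12.051 at P10. A log2 array signal has no true 0, so absence cannot be read from it. Alb (albumin) lay between 13.03 and 13.21 on all 9 arrays, while Cyp2e1, a cytochrome P450 of mature hepatocytes, averaged 12.69 at P5 and 12.64 at P10, against 5.53 at E15.5. Of 19 measured markers of hepatic stellate cells, the retinoid-storing stromal cells of the liver, 18 were lower at P5 and 17 at P10 than at E15.5, with none higher. Their log2 summed signal ranged over 14.84 to 15.06 at E15.5, 13.26 to 13.59 at P5 and 12.68 to 13.06 at P10. Lrat, which esterifies retinol in these cells, averaged 8.24 ± 0.29 at P5 and 7.72 ± 0.33 at P10, against 10.68 ± 0.28 at E15.5 (SD, n = 3 each). The part of these cell types in the results below was not tested, and in such bulk samples fewer cells of a type and less RNA per cell cannot be told apart.

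Nearly all measured genes of fatty acid oxidation and ketogenesis rose at P5 relative to E15.5. At an adjusted p under 0.05 (limma, Benjamini-Hochberg over all 19938 genes), 34 of 38 were higher at P5 than at E15.5, none was lower, and 4 did not pass (Cd36, Acsl5, Ppargc1b and Angptl4). Over all genes 17.9% were called higher and 17.7% lower. The rise was at least 2-fold in 32 members, against 7.2% of all genes. As the list was chosen with earlier results of these data known, these shares describe the members and do not test them. The median difference of the members was 1.93, against 0.03 over all genes, and the members ranged from -0.15 for Acsl5 to 3.88 for Ehhadh. By role, the median difference was 2.69 for peroxisomal oxidation, 2.66 for ketone bodies, 2.02 for lipid droplets and lipolysis, 1.95 for the carnitine shuttle, 1.95 for mitochondrial oxidation, 1.36 for uptake and activation, 1.20 for electron transfer and 0.93 for regulators. Among genes called at P5 against E15.5, 50.2% were higher, and quantile normalisation turned this into 64.1%. That scaling moved the median of all genes to 0.12, and the members' differences stand beside that shift.

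The members were also high at P10. Against E15.5, 35 of 38 members were higher at P10, 1 (Acsl5) was lower and 2 (Cd36 and Angptl4) did not pass, where over all genes 20.1% were higher and 18.6% lower. The rise was at least 2-fold in 32 members, against 9.06% of all genes. The median difference was 2.00, against 0.02 over all genes. By role it was 2.91 for peroxisomal oxidation, 2.62 for ketone bodies, 2.30 for the carnitine shuttle, 2.07 for mitochondrial oxidation, 1.71 for lipid droplets and lipolysis, 1.33 for electron transfer, 1.20 for regulators and 0.49 for uptake and activation. The share of higher genes among those called was 51.8%, and it was 69.4% after quantile normalisation and 65.6% after centring on all genes, with medians of all genes of 0.15 and 0.12. This comparison and that of P5 share the E15.5 arrays. At both postnatal stages 6 members (Fabp1, Crot, Acaa2, Etfa, Etfb and Acat1) had a mean above percentile 99 of all measured genes, as Hadh did at P10 alone. Whether such bright signals compress their differences was not tested, so no ranking is read from these members. The medians by role, here and for P5, include these members, so the order of the roles is not read as a ranking either.

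**Figure D1:**
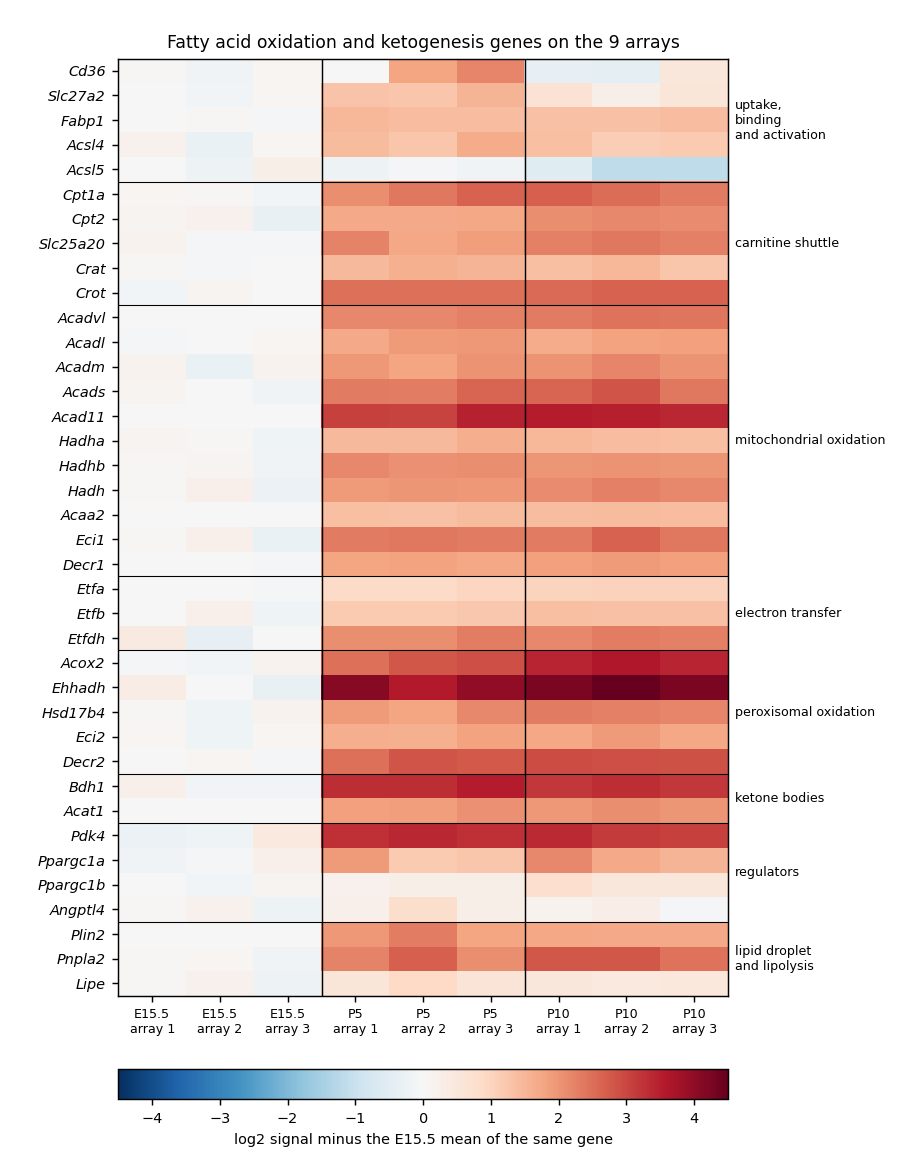
Each row is a member, each column 1 array of E15.5, P5 or P10, and the colour is the log2 signal minus that gene's E15.5 mean. Nearly all rows are redder on the P5 and P10 arrays than on the E15.5 arrays, apart from Acsl5 (bluer at P10), Cd36 (redder on P5 arrays 2 and 3) and the pale rows of Ppargc1b and Angptl4.

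Between P5 and P10 the members moved little. Of 38 members, 1 (Acox2) was higher at P10 than at P5, against 2.76% of all genes, and 2 (Slc27a2 and Acsl5) were lower, against 2.89%. The median difference was 0.12, against -0.002 over all genes. Of the 35 members that did not pass, 23 lay above 0 and 12 below, and the median size of their difference was 0.16. Cd36 aside, they lay between -0.31 and 0.45. The median was 0.30 over the 5 peroxisomal genes, of which 1 passed, and -0.79 over the 5 uptake and activation genes, of which 2 passed. The difference between these roles was not tested. The SD within a stage had a median of 0.12 over members and stages. The precision of these values is limited: the 95% interval was -0.22 to 0.48 for Cpt1a, -0.41 to 0.09 for Bdh1 and 0.01 to 0.89 for Ehhadh. Centring on all genes moved the higher share of called genes at P10 against P5 to 63.5%, against 48.8%, and the median of all genes to 0.06.

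**Figure D2:**
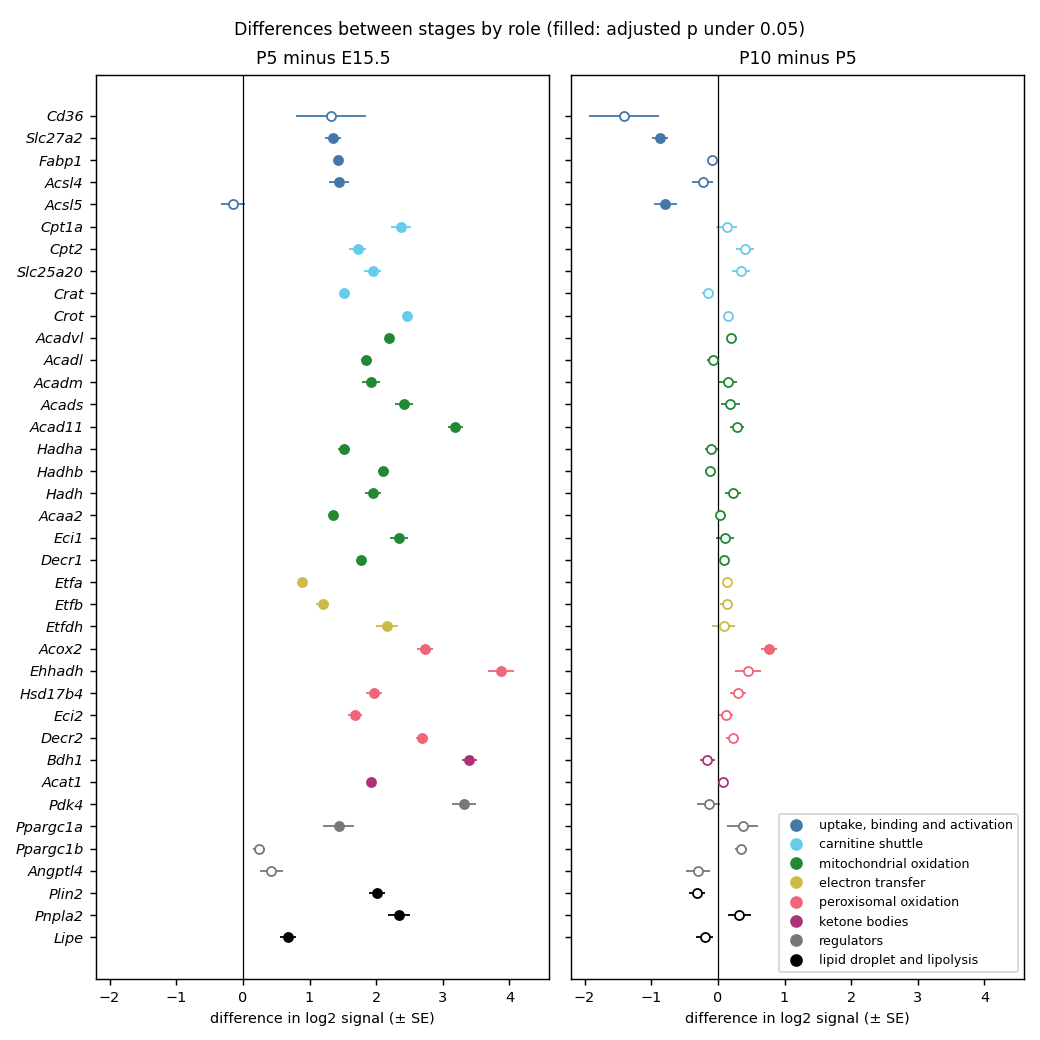
Differences in log2 signal with their limma SE for the 38 members, P5 minus E15.5 on the left and P10 minus P5 on the right, coloured by role, filled where the adjusted p was under 0.05. On the left 34 points are filled and lie right of 0; on the right 3 are filled, Acox2 right of 0 and Slc27a2 and Acsl5 left of it.

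Genes of fatty acid uptake, binding and activation were mixed. Of 5 measured, 3 rose at P5 against E15.5. Slc27a2, a very long-chain acyl-CoA synthetase and fatty acid transport protein, measured 10.43, 10.29 and 10.50 at E15.5, 11.70, 11.64 and 11.95 at P5, and 11.06, 10.68 and 10.95 at P10. Its 3 stages did not overlap, with P5 the highest and P10 in between. It rose by 1.36 ± 0.12 (SE) at P5 against E15.5 (adjusted p = 4.63e-05) and by 0.49 ± 0.12 at P10 against E15.5 (adjusted p = 0.0119), and differed by -0.87 ± 0.12 at P10 against P5 (adjusted p = 0.00619). It was the only member called in opposite directions in the earlier and the later interval. Its call at P10 against E15.5 ended under quantile normalisation, at a difference of 0.28 and an adjusted p of 0.0792.

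Acsl4, an acyl-CoA synthetase known for its preference for arachidonic acid, measured 8.48, 8.02 and 8.41 at E15.5, 9.72, 9.53 and 9.99 at P5, and 9.66, 9.42 and 9.47 at P10. Every P5 and P10 array was above every E15.5 array, and P5 and P10 overlapped. The difference was 1.45 ± 0.15 at P5 against E15.5, a 2.73-fold rise (adjusted p = 1.22e-04). Its paralogue Acsl5, an acyl-CoA synthetase of mitochondria and the endoplasmic reticulum, measured 9.14, 8.93 and 9.41 at E15.5, 8.93, 9.08 and 9.01 at P5, and 8.61, 8.03 and 8.01 at P10. The E15.5 and P5 arrays overlapped, and all P10 arrays lay below both. The difference was -0.15 ± 0.18 at P5 against E15.5 (adjusted p = 0.563, 95% interval -0.56 to 0.25), -0.94 ± 0.18 at P10 against E15.5 (adjusted p = 0.00281) and -0.79 ± 0.18 at P10 against P5 (adjusted p = 0.0408). The last call was lost without E15.5 array 1, without any 1 of the P5 arrays or without P10 array 2 or 3, where the differences lay between -0.83 and -0.68 and the adjusted p between 0.0727 and 0.138. It was also lost with the replicate block (adjusted p = 0.0734), with only the 2 stages fitted (0.0771), after centring arrays by all genes (0.0514) or by ribosomal protein genes (0.0543), and without P5 arrays 2 and 3 together (0.243).

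The next 2 genes, and Angptl4 and Lipe below, are given array by array after their values were seen. Fabp1, the liver fatty acid binding protein, measured 11.89, 11.96 and 11.86 at E15.5, 13.39, 13.30 and 13.31 at P5, and 13.22, 13.24 and 13.28 at P10. All P5 and P10 arrays lay above the E15.5 arrays, with a difference of 1.43 ± 0.06 at P5 (adjusted p = 4.33e-07) between signals that at P5 were above percentile 99. Cd36, a fatty acid translocase found on many cell types, measured 5.67, 5.46 and 5.68 at E15.5, 5.59, 7.37 and 7.81 at P5, and 5.23, 5.20 and 6.12 at P10. P5 arrays 2 and 3 were high and P5 array 1 lay among the E15.5 values, so the stages overlapped. The difference was 1.32 ± 0.52 at P5 against E15.5 (adjusted p = 0.0849) and -1.41 ± 0.52 at P10 against P5 (adjusted p = 0.191), and its SD of 1.17 at P5 was the largest of any member at any stage, against at most 0.41 for the others.

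Of the 10 endothelial cell markers, all but Tek had their 2 highest values on P5 arrays 2 and 3, where Cd36 was also highest. Their mean log2 signal was 6.88 to 7.06 at E15.5, 6.64, 8.22 and 8.50 on P5 arrays 1, 2 and 3, and 6.92, 6.96 and 7.45 on P10 arrays 1, 2 and 3. Their log2 summed signal ranged over 10.31 to 10.50 at E15.5, 10.06 to 12.03 at P5 and 10.41 to 10.99 at P10. At P5 against E15.5, 3 of the 10 were called higher, where 17.9% of all genes were. Pecam1 was among them at 0.66 ± 0.21 (adjusted p = 0.0394). Without P5 array 1 the Cd36 difference was 1.99 at P5 against E15.5 (adjusted p = 0.00138) and -2.07 at P10 against P5 (adjusted p = 0.0119), and without P5 arrays 2 and 3 together the difference at P5 against E15.5 was -0.01. The part of endothelial RNA in the Cd36 values was not tested. All 34 calls of members at P5 against E15.5 were also made without P5 arrays 2 and 3.

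**Figure D3:**
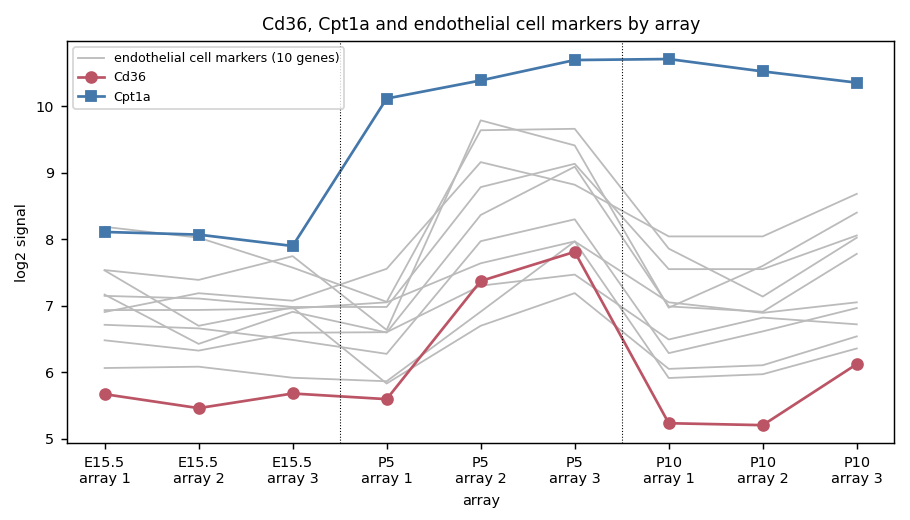
Log2 signal by array for Cd36, Cpt1a and the 10 endothelial cell markers (grey lines). Cd36 and most grey lines are highest on P5 arrays 2 and 3, while Cpt1a is high on all 6 postnatal arrays.

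All 5 measured genes of the carnitine shuttle rose at P5 and at P10 against E15.5, by at least 2-fold each. Cpt1a, the liver isoform of carnitine palmitoyltransferase 1 and the step at which entry into mitochondria is controlled, measured 8.11, 8.07 and 7.90 at E15.5, 10.11, 10.39 and 10.69 at P5, and 10.71, 10.52 and 10.35 at P10. Its lowest postnatal array lay far above its highest E15.5 array. The difference was 2.37 ± 0.15 at P5, a 5.18-fold rise (adjusted p = 6.39e-06), and 2.50 ± 0.15 at P10 (adjusted p = 3.28e-06). Its muscle paralogue Cpt1b was not analysed here, so no isoforms are set against each other within the member list. Cpt2, which returns the acyl group to CoA inside the mitochondrion, averaged 11.23 ± 0.02 at P5 against 9.51 ± 0.30 at E15.5 (SD, n = 3 each). Slc25a20, the carnitine-acylcarnitine translocase of the inner membrane, averaged 9.29 ± 0.26 at P5 against 7.34 ± 0.13 at E15.5. Crat, which transfers acetyl groups to carnitine, differed by 1.52 ± 0.08 at P5.

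Crot, the peroxisomal carnitine octanoyltransferase, measured 9.88, 10.14 and 10.04 at E15.5, 12.49, 12.49 and 12.49 at P5, and 12.56, 12.68 and 12.67 at P10. The P5 arrays held equal values, which lowers their SD to 0, and all postnatal arrays lay above the E15.5 arrays. The difference against E15.5 was 2.47 ± 0.07 at P5 (adjusted p = 1.21e-07) and 2.62 ± 0.07 at P10 (adjusted p = 6.19e-08), with both postnatal means above percentile 99. None of the 5 was called at P10 against P5, with differences from -0.16 for Crat to 0.41 for Cpt2 (adjusted p = 0.126).

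All 11 genes of mitochondrial oxidation rose at both postnatal stages against E15.5, each by at least 2-fold. The acyl-CoA dehydrogenases catalyse the opening step and are ordered by the chain length they prefer. At P5 against E15.5 the difference was 2.19 ± 0.06 for Acadvl (very long chains), 1.85 ± 0.08 for Acadl (long), 1.93 ± 0.13 for Acadm (medium) and 2.42 ± 0.14 for Acads (short), so all chain lengths were covered. Acad11, an acyl-CoA dehydrogenase that also takes part in the breakdown of 4-hydroxy fatty acids, differed most of the 11. It was placed in this role by the list, and the compartment in which its protein acts was not tested. It measured 7.29, 7.26 and 7.26 at E15.5, 10.34, 10.32 and 10.72 at P5, and 10.82, 10.78 and 10.65 at P10. The E15.5 arrays lay close together and far below the rest, and P10 overlapped P5. The rise was 9.12-fold at P5 (3.19 ± 0.11, adjusted p = 2.14e-07) and 11.1-fold at P10 (3.48 ± 0.11, adjusted p = 1.02e-07).

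The later steps of the spiral rose with the dehydrogenases. Hadha and Hadhb, the alpha and beta subunits of the trifunctional protein, differed by 1.52 ± 0.09 and 2.11 ± 0.08 at P5 against E15.5. Hadhb had a second probe set, which measured 11.96, 11.85 and 11.86 at P5 against 9.80, 9.74 and 9.52 at E15.5 and so moved alike. Hadh, the dehydrogenase of medium and short 3-hydroxyacyl-CoA, differed by 1.95 ± 0.12. Acaa2, the thiolase that releases acetyl-CoA, differed by 1.36 ± 0.05. Eci1 and Decr1, an isomerase and a reductase needed for unsaturated fatty acids, differed by 2.35 ± 0.14 and 1.78 ± 0.05. At P10 against P5 none of the 11 was called, and they ranged from -0.12 for Hadhb to 0.29 for Acad11.

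Electron transfer flavoprotein takes the electrons from these dehydrogenases, and its oxidoreductase passes them to ubiquinone. All 3 genes rose at P5 against E15.5. Etfdh, the oxidoreductase, measured 10.32, 9.55 and 9.90 at E15.5, 12.03, 12.01 and 12.21 at P5, and 12.09, 12.23 and 12.20 at P10. E15.5 array 1 was the highest of its stage but still below every postnatal array. The difference was 2.16 ± 0.17 at P5, a 4.48-fold rise (adjusted p = 2.26e-05). The subunits Etfa and Etfb, whose postnatal means lay above percentile 99, differed by 0.89 ± 0.05 and 1.20 ± 0.10.

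Peroxisomal oxidation included the gene with the largest difference of all members. All 5 genes rose at both postnatal stages against E15.5. Ehhadh, the peroxisomal bifunctional enzyme of straight-chain oxidation, measured 7.15, 6.83 and 6.49 at E15.5, 10.91, 10.39 and 10.81 at P5, and 11.05, 11.34 and 11.07 at P10. Every postnatal array lay more than 3 units above every E15.5 array. The difference was 3.88 ± 0.19 at P5, a 14.7-fold rise (adjusted p = 1.53e-06), and 4.33 ± 0.19 at P10, a 20-fold rise (adjusted p = 5.39e-07). Hsd17b4, the second bifunctional enzyme, which handles branched chains and bile acid precursors, differed by 1.96 ± 0.12 at P5. The peroxisomal auxiliary enzymes for unsaturated chains, Eci2 and Decr2, differed by 1.68 ± 0.10 and 2.69 ± 0.10.

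Acox2, the branched-chain acyl-CoA oxidase that also shortens bile acid precursors, was the 1 member called higher at P10 than at P5. It measured 7.10, 7.01 and 7.30 at E15.5, 9.62, 9.95 and 10.02 at P5, and 10.57, 10.75 and 10.56 at P10. The 3 stages did not overlap and P10 was the highest. The difference was 2.73 ± 0.12 at P5 against E15.5 (adjusted p = 9.02e-07), 3.49 ± 0.12 at P10 against E15.5 (adjusted p = 1.65e-07) and 0.76 ± 0.12 at P10 against P5, a 1.7-fold rise (adjusted p = 0.0109). Of the 3 members called at P10 against P5 it alone was called under each of the 18 alternative settings.

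**Figure D4:**
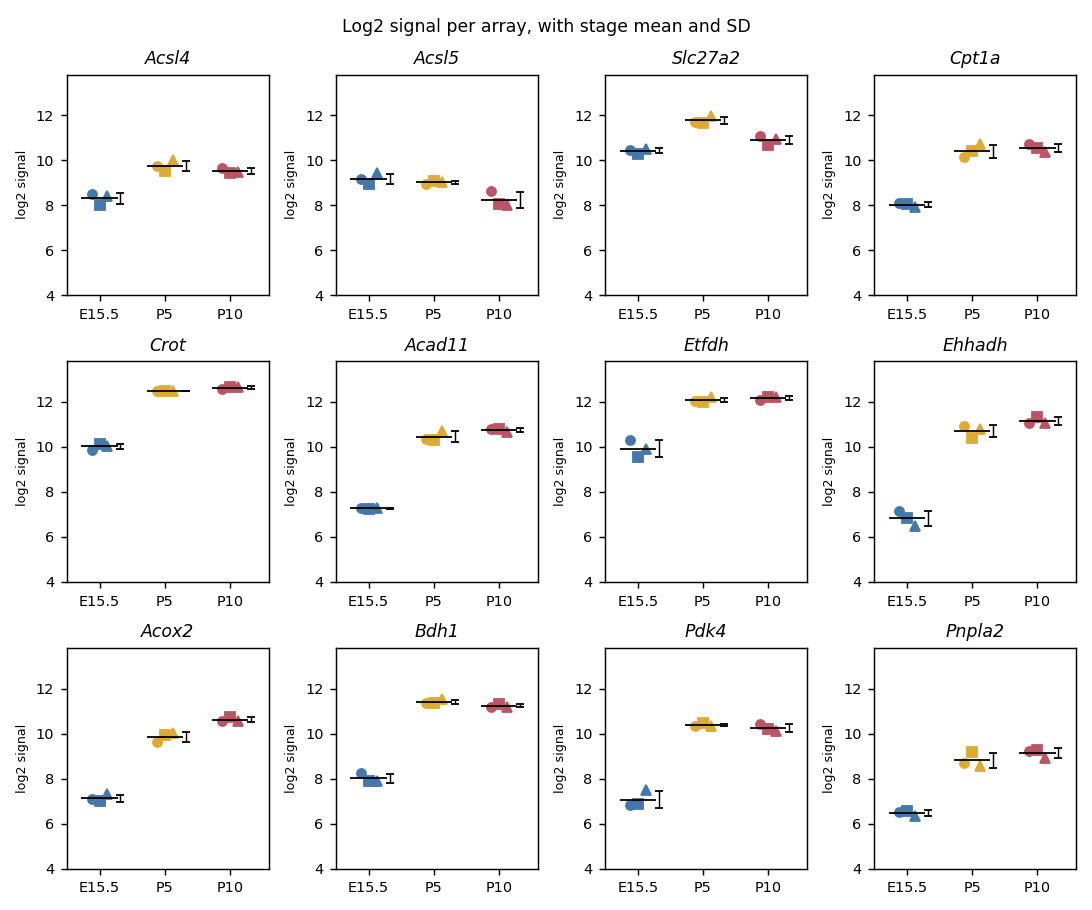
Log2 signal on each of the 9 arrays for 12 members, with the stage mean (line) and SD (bar, n = 3). In 11 of the panels the P5 and P10 points lie above the E15.5 points, and Acsl5 is the exception.

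Ketone body enzymes on the member list are Acat1, which joins acetyl-CoA units, and Bdh1, which converts acetoacetate to 3-hydroxybutyrate. Both rose at P5 and at P10 against E15.5. Bdh1 measured 8.26, 7.89 and 7.89 at E15.5, 11.35, 11.35 and 11.53 at P5, and 11.21, 11.33 and 11.21 at P10. All postnatal arrays lay above 11 and all E15.5 arrays below 9, and the P5 arrays lay above the P10 arrays by a small margin. The rise was 10.5-fold at P5 (3.40 ± 0.11, adjusted p = 1.67e-07) and 9.44-fold at P10 (3.24 ± 0.11, adjusted p = 1.43e-07), with no call between P10 and P5 (-0.16 ± 0.11, adjusted p = 0.537). Acat1 averaged 12.52 ± 0.12 at P5 and 12.60 ± 0.07 at P10, against 10.59 ± 0.03 at E15.5 (SD, n = 3 each).

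The regulators were mixed. Pdk4, the kinase that shuts off pyruvate dehydrogenase and so spares glucose carbon, measured 6.82, 6.89 and 7.51 at E15.5, 10.36, 10.46 and 10.35 at P5, and 10.43, 10.20 and 10.13 at P10. All postnatal arrays lay above all E15.5 arrays, and E15.5 array 3 was the highest of its stage. The rise was 9.98-fold at P5 (3.32 ± 0.17, adjusted p = 2.17e-06). Ppargc1a, the coactivator PGC-1-alpha, measured 7.53, 7.61 and 7.89 at E15.5, 9.59, 8.85 and 8.91 at P5, and 9.85, 9.39 and 9.20 at P10. It rose by 1.44 ± 0.23 at P5 (adjusted p = 0.00136) and by 1.81 ± 0.23 at P10 (adjusted p = 2.89e-04), each against E15.5. A second, dimmer probe set of Ppargc1a measured 5.90, 5.44 and 5.80 at E15.5, 7.92, 6.14 and 5.70 at P5, and 7.67, 7.70 and 7.04 at P10, so there the P5 arrays were spread and overlapped E15.5.

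Its paralogue Ppargc1b measured 5.92, 5.78 and 6.05 at E15.5, 6.12, 6.18 and 6.18 at P5, and 6.66, 6.43 and 6.42 at P10. The stages did not overlap, but the steps were small: 0.24 ± 0.09 at P5 against E15.5 (adjusted p = 0.0753), 0.58 ± 0.09 at P10 against E15.5 (adjusted p = 8.88e-04) and 0.35 ± 0.09 at P10 against P5 (adjusted p = 0.0675). Angptl4, a secreted inhibitor of lipoprotein lipase and a known PPAR target, measured 7.67, 7.81 and 7.38 at E15.5, 7.86, 8.41 and 7.87 at P5, and 7.78, 7.93 and 7.55 at P10. Its P5 arrays were above its E15.5 arrays by a small margin, and P10 overlapped both. The difference was 0.43 ± 0.18 at P5 against E15.5 (adjusted p = 0.1, 95% interval 0.02 to 0.84) and 0.13 ± 0.18 at P10 against E15.5 (adjusted p = 0.625). The difference between these members and Pdk4 was not tested.

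All 3 genes of lipid droplets and lipolysis rose at both postnatal stages against E15.5. Plin2, the coat protein of cytosolic lipid droplets, averaged 11.74 ± 0.27 at P5 and 11.44 ± 0.01 at P10, against 9.73 ± 0.03 at E15.5 (SD, n = 3 each). Pnpla2, adipose triglyceride lipase, measured 6.52, 6.58 and 6.33 at E15.5, 8.71, 9.18 and 8.57 at P5, and 9.26, 9.26 and 8.90 at P10. All postnatal arrays lay above all E15.5 arrays, a 5.07-fold rise at P5 (2.34 ± 0.17, adjusted p = 1.28e-05). Lipe, hormone-sensitive lipase, measured 6.50, 6.65 and 6.23 at E15.5, 7.01, 7.34 and 7.05 at P5, and 6.96, 6.90 and 6.94 at P10. Its rise of 0.67 ± 0.12 at P5 (adjusted p = 0.00251) and 0.47 ± 0.12 at P10 (adjusted p = 0.0137) was the smallest of the 3. Among adipocyte markers, Adipoq, the adipocyte hormone adiponectin, lay between 4.29 and 4.52 on all arrays. Of 6 measured genes listed as adipocyte markers, 2 (Adipor2 and Cidea) were called higher at P5 than at E15.5, where 17.9% of all genes were. At P10 against E15.5, 1 (Adipor2) was called higher, where 20.1% of all genes were. The log2 summed signal of the 6 ranged over 8.82 to 9.09 at E15.5, 9.58 to 9.93 at P5 and 9.76 to 9.99 at P10. Adipor2, a receptor of adiponectin and not specific to adipocytes, is the brightest of the 6 and weighs on this sum most. It averaged 9.25 at P5 and 9.48 at P10, against 8.06 at E15.5. Cidea, Adipoq and Lep were dim (below percentile 30) at every stage. Retn, Plin1, Lep and Adipoq passed in neither comparison with E15.5.

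A wider list of 93 other genes of fatty acid and ketone metabolism, 85 of them measured, gave the following counts. At P5 against E15.5, 61 were higher and 6 lower, where 17.9% and 17.7% of all genes were called, with a median difference of 1.13. At P10 against E15.5, 59 were higher and 8 lower, where 20.1% and 18.6% of all genes were called, with a median of 1.41. At P10 against P5, 17 were higher and 4 lower, where 2.76% and 2.89% of all genes were called, with a median of 0.15. The 4 lower of 85 are few and near the share over all genes. Ppara, the nuclear receptor named above, measured 7.23, 7.26 and 7.14 at E15.5, 10.64, 10.51 and 10.87 at P5, and 11.18, 11.25 and 11.02 at P10. It rose by 3.46 ± 0.10 at P5 against E15.5 (adjusted p = 1.21e-07) and differed by 0.48 ± 0.10 at P10 against P5 (adjusted p = 0.0342). Its P10 call against P5 was lost without E15.5 array 1 or 2, P5 array 1 or 2, or P10 array 1 or 2 (adjusted p = 0.056 to 0.121). It was also lost with the replicate block (adjusted p = 0.0851), with only the 2 stages fitted (0.0936) and after centring on ribosomal protein genes (0.0512). Without P5 arrays 2 and 3 together the Ppara difference at P10 against P5 was 0.52. Pparg, the receptor best known from adipocytes, had the smallest adjusted p of the list at P5 against E15.5, averaging 9.93 ± 0.08 at P5 against 6.38 ± 0.07 at E15.5 (SD, n = 3 each), a difference of 3.55 ± 0.06 (adjusted p = 1.04e-08), and differed by 3.62 ± 0.06 at P10 against E15.5. Fgf21, a liver hormone of the fasting response, differed by 0.55 ± 0.08 at P5 against E15.5 (adjusted p = 7.15e-04), but at E15.5 its signal was dim (below percentile 30), and whether dimness compresses the difference was not tested.

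Cyp4a14, a microsomal fatty acid omega-hydroxylase, measured 4.53, 5.17 and 4.83 at E15.5, 11.50, 11.40 and 11.54 at P5, and 10.29, 10.60 and 10.73 at P10. The P5 arrays were the highest and the E15.5 arrays by far the lowest, whose average fell below percentile 30 of all measured genes. Its difference of 6.64 ± 0.17 at P5 against E15.5 (adjusted p = 5.13e-08) therefore rests on a dim signal, and no fold is given. It was lower at P10 than at P5 (-0.94 ± 0.17, adjusted p = 0.0164), a call lost without P10 array 2 (adjusted p = 0.0536) and without P5 arrays 2 and 3 together (adjusted p = 0.115). The related Cyp4a10 differed by 3.50 ± 0.12 at P5 against E15.5 and by -1.13 ± 0.12 at P10 against P5 (adjusted p = 0.00199). Both belong to a cluster of closely related genes, and whether their probes tell the transcripts apart was not tested. Peroxisomal alpha-oxidation genes rose as well: Phyh, the phytanoyl-CoA hydroxylase, by 2.66 ± 0.06 and Hacl1, the lyase that follows it, by 3.67 ± 0.09 at P5 against E15.5, and by 2.76 ± 0.06 and 4.37 ± 0.09 at P10 against E15.5. The postnatal means of Phyh lay above percentile 99. Scp2, which encodes a peroxisomal thiolase and a sterol carrier, averaged 11.97 ± 0.11 at P10, against 7.87 ± 0.21 at E15.5 (SD, n = 3 each).

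Genes that went down included the enzyme of ketone body use. Oxct1, the transferase with which tissues outside the liver consume ketone bodies and which hepatocytes are known to lack, measured 9.43, 9.39 and 9.53 at E15.5, 7.93, 7.29 and 7.51 at P5, and 7.25, 7.29 and 7.38 at P10. All postnatal arrays lay below all E15.5 arrays. It fell at P5 against E15.5 by 1.87 ± 0.14 (adjusted p = 1.92e-05) and at P10 against E15.5 by 2.14 ± 0.14 (adjusted p = 6.20e-06), each on the log2 scale. Cpt1c, the brain-type paralogue of Cpt1a, differed by -0.71 ± 0.08 at P5 against E15.5 (adjusted p = 2.11e-04), so it and Cpt1a went opposite ways. Vldlr, a lipoprotein receptor, differed by -1.09 ± 0.16 and Acot1, a cytosolic acyl-CoA thioesterase, by -0.64 ± 0.12 at P5. At P10 against E15.5 the difference was -0.96 ± 0.08 for Cpt1c, -1.14 ± 0.12 for Acot1 and -1.07 ± 0.13 for Lipa, the lysosomal acid lipase (adjusted p = 1.97e-04). The call of Acot1 at P5 was lost without P5 arrays 2 and 3 together (adjusted p = 0.055). The other 2 called lower at P5, named after their values were seen, were Acss1, a mitochondrial acetyl-CoA synthetase, at -0.78 ± 0.17 and the transcription factor Nrf1 at -0.38 ± 0.10. Stellate cell markers were lower on the same postnatal arrays, as given above, and their part in these decreases was not tested.

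At P10 against P5, the wider list held changes that few members showed. Nudt7, a peroxisomal enzyme that hydrolyses CoA, averaged 10.52 ± 0.08 at P10, against 9.67 ± 0.07 at P5 (SD, n = 3 each), and rose by 0.85 ± 0.08 (adjusted p = 0.00131). Pdk2, a further pyruvate dehydrogenase kinase, rose by 0.90 ± 0.13 (adjusted p = 0.00841), Hacl1 by 0.70 ± 0.09 (adjusted p = 0.0047) and Pccb, a subunit of propionyl-CoA carboxylase, by 0.48 ± 0.07 (adjusted p = 0.00726, and 0.0661 without P5 arrays 2 and 3 together). Lipa averaged 8.84 ± 0.14 at P10, against 10.22 ± 0.24 at P5 (SD, n = 3 each), and fell by 1.37 ± 0.13 (adjusted p = 0.00112). Acot1 differed by -0.49 ± 0.12 (adjusted p = 0.0474), a call lost under quantile normalisation (0.0582), with only the 2 stages fitted (0.0799), and without any 1 E15.5 array, P5 array 1 or 2, or any 1 P10 array (adjusted p = 0.051 to 0.137). The 17 higher genes became 7 without P10 array 2, 9 without P10 array 1, 10 without P5 array 2, 11 without P5 array 1 and 6 without P5 arrays 2 and 3, and the 4 lower became 2 without P10 array 2.

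**Figure D5:**
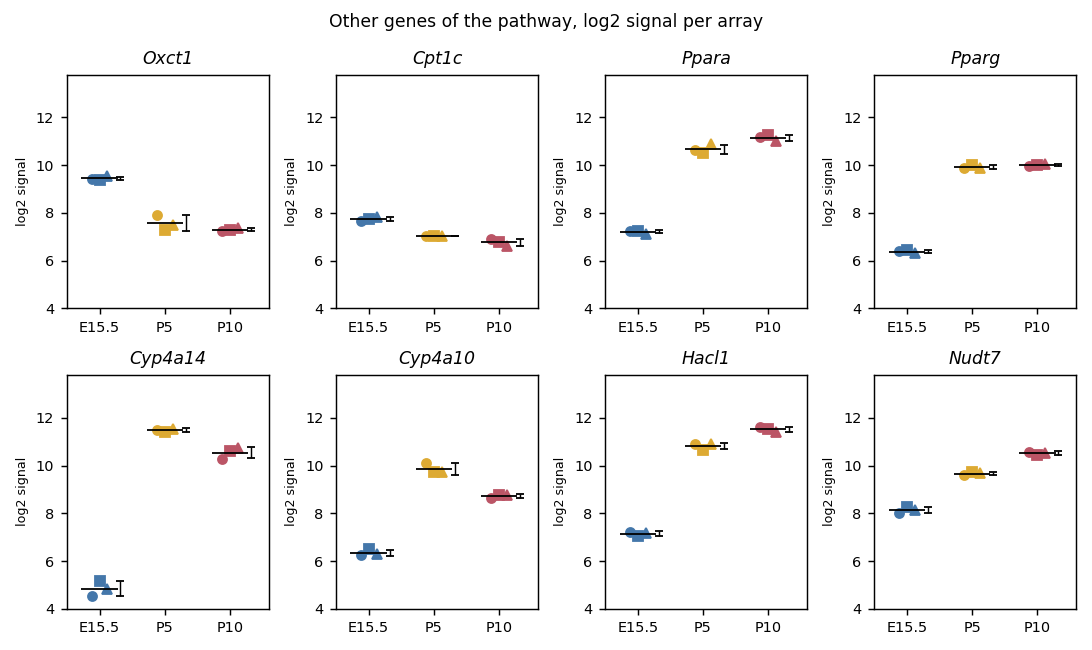
Log2 signal per array, with stage mean (line) and SD (bar, n = 3), for 8 other genes of the pathway. Oxct1 and Cpt1c are lower at P5 and P10 than at E15.5, Cyp4a14 and Cyp4a10 are highest at P5, and Hacl1, Nudt7 and Ppara are highest at P10.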

How the data were processed

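RNA of 9 samples was measured on Affymetrix arrays, 3 at each of E15.5, P5 and P10. Extraction was with Trizol and labelling with biotin, per the labels' protocols. The deposited values are log2 signals per probe set that the authors made with RMA (robust multi-array averaging), per the submitters' processing notes, where Affymetrix Expression Console and version 2.0 of Transcriptome Analysis Console are named too. The method adjusts background, equalises the distribution of probes between arrays and summarises each probe set, so differences are relative to the array as a whole. The probes' genome build was not given in the sources used here.

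Of 35556 probe sets, 21789 carry 1 gene symbol in the annotation used, which left 19938 genes, read from their brightest probe set on average. All 9 arrays entered 1 linear model on stage in limma 3.58.1 (R 4.3.3), with 6 residual and 2.22 prior degrees of freedom. The 2-sided moderated p-values were corrected over the whole gene table (Benjamini-Hochberg), and an adjusted p under 0.05 is a call. Differences carry the model's SE and means the SD over 3 arrays. No filter on dim signals was applied. The fit was tested on simulated data.

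The members and the lists were chosen with earlier results of these data known. Array values are given per role for the called member with the largest difference at P5 against E15.5 and at P10 against P5, for members called in opposite directions in those contrasts, and for paralogues. Of the wider list, Ppara, Pparg and Fgf21 are named, and per contrast the 4 called genes in each direction with the smallest adjusted p. Some other genes that the rule names are not reported here. Further genes are marked as chosen after their values were seen. Of the macrophage, erythroid, cholangiocyte and muscle markers, 1 of 9, 0 of 4, 3 of 5 and 1 of 8 were called higher at P5 against E15.5, and 1, 2, 0 and 0 lower, where 17.9% and 17.7% of all genes were called. Alternatives were quantile normalisation, centring on the median of all genes, centring on 57 ribosomal protein genes, leaving out genes under percentile 30, the mean of a gene's probe sets, a replicate block, only the compared stages, a trended robust variance, and each array left out in turn. Promoter windows came from RefSeq, build GRCm38.p6, and their motifs were counted by exact or mismatched letters.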

Additional observations from a re-analysis of the deposited data

How the results depend on the processing

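Under all 18 alternatives, the 34 members called higher at P5 against E15.5 kept that call, and 35 of the 36 members called at P10 against E15.5 kept theirs, the exception being Slc27a2 (0.28 under quantile normalisation). The number of members higher was 34 to 36 at P5 and 34 to 35 at P10. At P10 against P5, Acox2 alone of the 3 called members kept its call under every alternative. The 1 member higher at P10 against P5 became 2 under quantile normalisation, centring on all genes and fitting 2 stages only, and was 1 to 2 when single arrays were left out. The 2 lower members became 1 under centring on all genes, centring on ribosomal protein genes, the replicate block and 2 stages only, 1 to 2 when single arrays were left out, and 0 without P5 arrays 2 and 3 together, a setting chosen after seeing the data, in which the lone P5 array is assumed to vary like the others. In that setting Slc27a2 differed by -0.80 at P10 against P5 (adjusted p = 0.0543) and Cd36 by -0.008 at P5 against E15.5. Cd36 at P10 against E15.5, never called, was 0.081 under quantile normalisation and 0.012 centred on all genes, and -0.385 to 0.074 when single arrays were left out. For the 4 members not called at P5 against E15.5, 7 combinations of member and alternative gave a call. Among these, Cd36 passed when centred on ribosomal protein genes (1.39) and without P5 array 1. Ppargc1b passed under quantile normalisation (0.36), and Angptl4 under quantile normalisation (0.53) and the replicate block (0.43, adjusted p = 0.0142). The wider list's 17 genes higher at P10 against P5 were 7 to 17, and its 4 lower genes 2 to 4, when single arrays were left out, and 6 were higher without P5 arrays 2 and 3. At P10 against P5, Acsl5 had an adjusted p of 0.0734 with the replicate block. Arrays of 1 replicate number were no more alike than others (residual r -0.079 to 0.069, 0 of 9 pairs over 0.1), so they were not paired. The share of higher genes among all called genes at P5 against E15.5 was 54.8% centred on all genes and 56.3% centred on ribosomal protein genes. The cause of these changes was not tested. The number of arrays limits the precision, and depth does not apply.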
